A study of Mus musculus with 6 samples.

Results

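Alternative splicing of heart muscle transcripts depends on a few families of RNA-binding proteins, and the genes for these proteins were followed in the hearts of 10-day-old mice. They were taken by name from the protein-coding rows of the deposited table: the numbered Srsf, Celf, Mbnl and Rbfox genes, all Hnrnp genes, and Rbm20, Rbm24, Rbm38, Ptbp1 and Ptbp2. This gave 49 of the 46452 rows of the table, of which 22186 are protein-coding. The 49 genes are 11 of the SR family, 21 of the heterogeneous nuclear ribonucleoprotein (hnRNP) family, 6 CELF, 3 MBNL, 3 RBFOX, 3 RBM and 2 PTBP genes.

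The series is on NAT10, an RNA acetyltransferase, in heart development. Of its 6 heart libraries, 3 are labelled Nat10-CKO, meaning that Nat10 was to be removed by a conditional knockout. The other 3 carry the label Nat10 flox/flox, which stands for a pair of alleles with loxP sites and says nothing of Cre. The labels call the 3 of each group independent biological replicates, and all hearts were taken at 10 days. The Cre driver, the deleted exons, the sex and the strain are not given in the sources used here. The question addressed here is which splicing regulators differed in level between hearts of both labels.

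Levels are given as the authors deposited them, in FPKM: fragments counted for each kilobase of a gene, after scaling for library size. Reads in genes numbered 35243886 to 35854754 in the Nat10-CKO-labelled libraries and 31155521 to 38051266 in the Nat10 flox/flox libraries. For a gene of 1 kb, 0.0246 to 0.0316 FPKM correspond to a single read. Mitochondrially encoded genes took 7.56% to 9.26% of reads in the Nat10-CKO-labelled libraries and 16.55% to 18.35% in those labelled Nat10 flox/flox. Nat10 itself went against the label: it stood at 8.28, 8.66 and 10.2 FPKM in the Nat10-CKO-labelled libraries and at 3.75, 4.18 and 4.71 FPKM in those labelled Nat10 flox/flox (limma log2 fold change 0.94, adjusted p = 0.00142). Each direction below therefore rests on the labels alone. Markers of other cell types also moved with the labels or with 1 library. Of 10 endothelial markers, 9 (90%) fell in the Nat10-CKO-labelled libraries, against 16.0% of all tested genes. The list summed to 247 to 251 FPKM there, against 397 to 466 FPKM in those labelled Nat10 flox/flox. All 5 tested erythroid markers fell as well, with sums of 423 to 535 FPKM in Nat10-CKO-labelled libraries and 689 to 1781 FPKM in those labelled Nat10 flox/flox. Of 10 fibroblast markers 0 rose and 1 fell, and sums were 835, 778 and 451 FPKM in Nat10-CKO-labelled libraries and 491, 521 and 517 FPKM in those labelled Nat10 flox/flox. None of 8 tested macrophage and leukocyte markers passed, with sums of 554, 678 and 645 FPKM in Nat10-CKO-labelled libraries and 416, 610 and 376 FPKM in those labelled Nat10 flox/flox. Nat10 flox/flox replicate 1 had the highest level of 14 of 16 neuron markers, whose sums were 17.9 to 43.8 FPKM in Nat10-CKO-labelled libraries and 729, 8.93 and 14.9 FPKM in Nat10 flox/flox replicates 1, 2 and 3. Snap25, a synaptic gene among them, was at 0 in the other 5 libraries. Of 9 tested smooth muscle and pericyte markers, 2 rose (22.2%) and 4 fell (44.4%). That list summed to 1658 to 2254 FPKM in Nat10-CKO-labelled libraries against 834 to 970.1 FPKM in those labelled Nat10 flox/flox. Most of these sums came from Des, which rose. It had 2038, 2100 and 1500 FPKM in Nat10-CKO-labelled libraries and 542, 630 and 603 FPKM in those labelled Nat10 flox/flox. Kcnj8, Abcc9 and Rgs5 of the same list fell, so the sums do not stand for the list as a whole. The part of these cell types in the levels below was not tested. All 10 cardiomyocyte markers of the labelled tissue were detected. They summed to 13770, 20570 and 23470 FPKM in Nat10-CKO-labelled libraries and 21880, 24650 and 26480 FPKM in those labelled Nat10 flox/flox. Nat10-CKO replicate 1 thus had the lowest cardiomyocyte sum of all 6 libraries, and also the highest fibroblast sum. Of these 10, Nkx2-5 and Gata4 rose and Tnni3 and Pln fell.

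In splicing, SR proteins carry a tail rich in arginine and serine and mostly promote the use of the exons they bind, whereas many hnRNPs, among them HNRNPA1 and PTBP1, favour exon skipping. The CELF and MBNL proteins drive opposite choices at many exons, and the balance between them shifts as the heart matures after birth. RBM20, RBM24 and the RBFOX proteins help to set the muscle forms of sarcomere and calcium-handling proteins, with titin as the best known target of RBM20. Many genes of these families also control their own level through transcripts that are cut short and degraded.

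The genome sequence just before the start of transcription is shown for Hnrnpu and Hnrnpa1, an hnRNP gene that rose and one that fell, and for both promoters of Rbfox1, the gene with the largest change among the 41 tested. Each stretch spans the 180 bases from 200 to 21 bases before a RefSeq start, read 5′ to 3′ on the gene's strand. Capitals mark the GC box (GGGCGG) and the CCAAT box (CCAAT), searched on both strands. The RefSeq promoter table is of GRCm38.p6, and its sequences were matched exactly to GRCm39, whose coordinates are given. Hnrnpu lies at chr1:178165401-178165580 on the minus strand, Hnrnpa1 at chr15:103148624-103148803 on the plus strand, and the Rbfox1 stretches at chr16:5702457-5702636 and chr16:6887499-6887678 on the plus strand.
Hnrnpu: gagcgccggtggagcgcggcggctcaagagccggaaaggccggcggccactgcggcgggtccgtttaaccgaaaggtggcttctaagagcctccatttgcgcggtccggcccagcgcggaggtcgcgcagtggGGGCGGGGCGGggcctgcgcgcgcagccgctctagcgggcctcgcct
Hnrnpa1: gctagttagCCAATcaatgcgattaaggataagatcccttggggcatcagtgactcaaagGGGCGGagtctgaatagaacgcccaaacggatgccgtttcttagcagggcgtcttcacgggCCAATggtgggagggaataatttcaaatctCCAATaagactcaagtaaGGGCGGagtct
Rbfox1 first promoter: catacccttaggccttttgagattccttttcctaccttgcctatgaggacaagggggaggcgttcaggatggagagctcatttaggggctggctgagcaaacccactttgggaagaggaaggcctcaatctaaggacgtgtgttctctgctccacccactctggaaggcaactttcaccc
Rbfox1 second promoter: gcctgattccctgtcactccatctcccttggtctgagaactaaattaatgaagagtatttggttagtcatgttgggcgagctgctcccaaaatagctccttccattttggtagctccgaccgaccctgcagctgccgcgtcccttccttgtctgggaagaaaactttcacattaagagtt

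The Hnrnpu stretch holds overlapping GC boxes in a sequence of 74.4% G and C. Its RefSeq start lies 4683 bases after the deposited start of Hnrnpu, so the stretch is within the deposited span of the gene. The Hnrnpa1 stretch is 49.4% G and C and holds both kinds of box more than once. GENCODE places the Hnrnpa1 stretch inside the span of Hnrnpa1, and in an exon of Gm62980 on the other strand. Neither Rbfox1 stretch holds either box. The first start lies 91 bases and the second 1185133 bases after the deposited start of the gene, and GENCODE annotates no exon in either stretch. Of the 49 genes, 44 matched at least 1 RefSeq promoter of 300 bases (250 before the start and 50 after it), with 73 promoters in all. A gene was counted for a motif if any of its promoters held it. The comparison was with all 27025 genes in the promoter table, expressed in these hearts or not, and no difference in share was tested. A GC box was found for 33 of the 44 (75%), against 38.2% of all 27025 genes, and a CCAAT box for 25 (56.8%), against 41.1%. The motif TGACGT was found for 10 (22.7%, against 8.37%), the E-box CACGTG for 7 (15.9%, against 8.09%) and TATAAA for 8 (18.2%, against 15.7%). Among the genes called higher below, 7 had a promoter in the table, and 4 of these held a GC box and 4 a CCAAT box. All 3 genes called lower had one, and 2 of them held a GC box and 1 a CCAAT box.

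Of the 49 genes, 41 had a mean of at least 1 FPKM over the 6 libraries and were tested. With limma on log2(FPKM + 1), adjusted over all 11996 tested genes, 10 rose and 3 fell in the Nat10-CKO-labelled libraries, at an adjusted p under 0.05. Among all tested genes, 24.4% rose and 16.0% fell (40.5% in either direction). For the 41 splicing regulators the shares were 24.4% and 7.32%, so the share of rises equalled the background. Their median log2 fold change was 0.16, against 0.03 over all tested genes, and their median absolute log2 fold change was 0.27, against 0.38. The libraries of both groups did not overlap for 20 of the 41 (48.8%), against 55.9% of all tested genes. The split of rises and falls depended on the scaling. It was 5 and 8 with quantile normalization. It was 4 and 5 with mitochondrial genes left out and the total FPKM of the remaining genes made equal. The same numbers came with the total FPKM of nuclear protein-coding genes made equal. Both of these fits replace the deposited scaling by a common total. Over all tested genes the deposited scaling gave 2932 rises and 1924 falls. The alternatives gave 2514 and 2254 (quantile), 2353 and 2483 (no mitochondrial genes), and 2304 and 2536 (common total), and moved the median of all genes to -0.02, -0.06 and -0.07. The counts also moved with single libraries left out: 3, 3 and 4 genes rose without Nat10 flox/flox replicates 1, 2 and 3, and 5 fell without Nat10-CKO replicate 1. Such fits also have fewer libraries, and the part of each was not tested. Over all tested genes, 19.8%, 17.7% and 19% rose without the same Nat10 flox/flox replicates, and 16% fell without Nat10-CKO replicate 1. The calls of 6 genes held under all 17 alternatives in which they were tested: Rbfox1, Rbm38, Hnrnpm, Hnrnpu, Hnrnpa1 and Hnrnpdl. No such count was made over all tested genes.

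**Figure D1:**
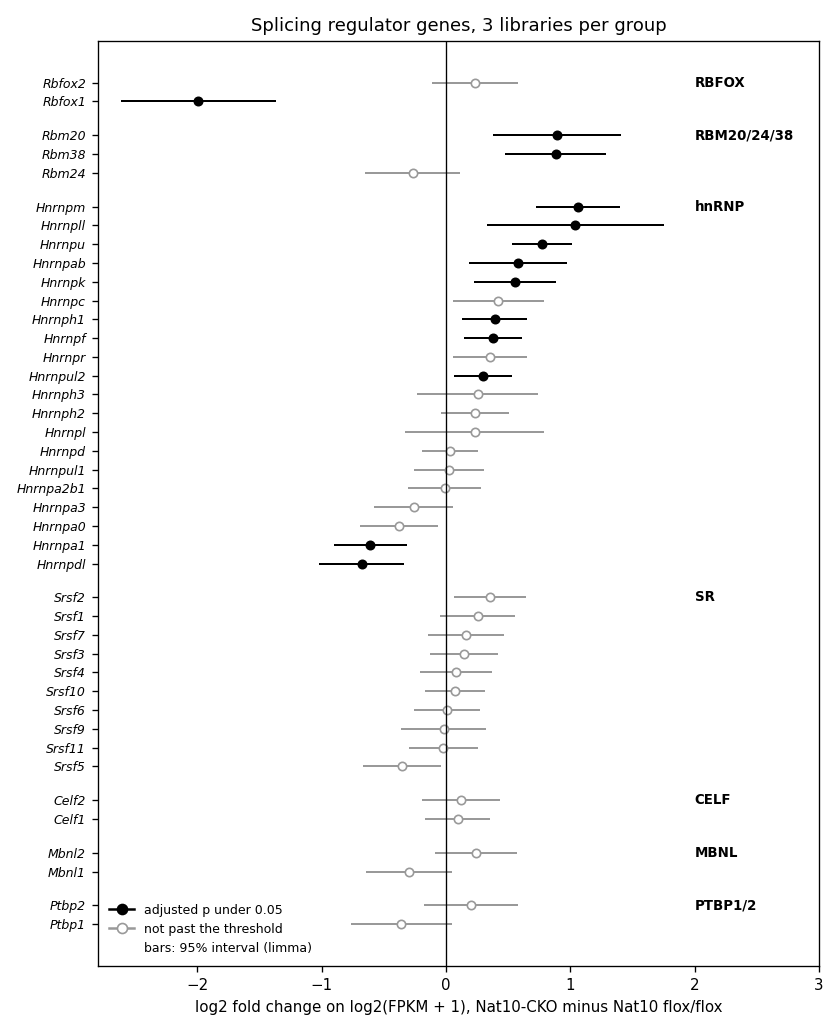
Log2 fold change on the log2(FPKM + 1) scale (Nat10-CKO-labelled libraries minus Nat10 flox/flox, horizontal axis) of the 41 tested splicing regulator genes by family, with bars for the 95% limma interval. Filled points passed an adjusted p under 0.05: 10 lie to the right of 0, and 3 (Rbfox1, Hnrnpa1 and Hnrnpdl) to the left, while all 10 SR genes are open points within 0.36 of 0.

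The RBFOX proteins bind GCAUG in RNA beside the exons they control. Rbfox1, the form made in heart, skeletal muscle and neurons, had 0.332, 0.612 and 1.49 FPKM in the Nat10-CKO-labelled libraries, against 7.59, 5.69 and 4.81 FPKM in those labelled Nat10 flox/flox. The groups did not overlap, with even the highest library labelled Nat10-CKO far below the lowest Nat10 flox/flox library. Rbfox1 (gene ID 268859, chromosome 16, 5702566 to 7230344, plus strand, GRCm39) averaged 0.810 ± 0.601 FPKM in Nat10-CKO-labelled libraries and 6.03 ± 1.422 FPKM in those labelled Nat10 flox/flox (SD, n = 3 each), 7.45-fold lower. Its log2 fold change was -1.99 (SE 0.26), with a limma adjusted p of 0.00164. On recovered reads (voom) it was -3.16, on a scale that does not add 1 to FPKM; adding 1 understates the change of a low gene. Rbfox1 is also a neuronal gene, and the library rich in neuron markers had its highest level. Without that library the log2 fold change was -1.84 (adjusted p = 0.00704). In bulk tissue, fewer cells of a type and less RNA per cell cannot be told apart. Rbfox2, the more widely made form, had 2.70, 4.04 and 3.53 FPKM in Nat10-CKO-labelled libraries and 2.83, 2.44 and 2.93 FPKM in those labelled Nat10 flox/flox, which overlap (log2 fold change 0.24, adjusted p = 0.225), and it was called higher with array weights only. Rbfox1 was therefore 11%, 13.1% and 29.6% of the family's FPKM in Nat10-CKO-labelled libraries, against 67.8%, 70% and 62.2% in those labelled Nat10 flox/flox. Summed over the family, the level was 3.03, 4.66 and 5.01 FPKM in Nat10-CKO-labelled libraries and 11.2, 8.14 and 7.74 FPKM in those labelled Nat10 flox/flox.

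Of the RBM genes, Rbm20 and Rbm38 rose and Rbm24 did not pass the test. Rbm20 encodes the titin splicing repressor that is mutated in some familial dilated cardiomyopathies. It stood at 32.5, 39.5 and 57.9 FPKM in the Nat10-CKO-labelled libraries and 20.4, 21.9 and 24.4 FPKM in those labelled Nat10 flox/flox, with every library labelled Nat10-CKO above all the others. The mean was 43.3 ± 13.1 FPKM in Nat10-CKO-labelled libraries and 22.2 ± 2.06 FPKM in those labelled Nat10 flox/flox (SD, n = 3 each), a 1.95-fold rise with a log2 fold change of 0.89 (SE 0.21), for which limma gave an adjusted p of 0.016. The adjusted p was 0.0512 with Nat10 flox/flox replicate 1 left out and 0.0538 with replicate 2 left out. The gene (ID 73713, chromosome 19, 53649422 to 53855514, plus strand) overlaps Gm16299 on the other strand, which had 2.21, 1.67 and 3.22 FPKM in Nat10-CKO-labelled libraries and 0.493, 0.436 and 0.740 FPKM in those labelled Nat10 flox/flox. It also overlaps Gm46653 on that strand, with 2.85, 3.01 and 4.58 FPKM in Nat10-CKO-labelled libraries and 2.23, 2.12 and 3.17 FPKM in those labelled Nat10 flox/flox, which overlap.

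Rbm38, which encodes an RNA-binding protein known for its link to p53 and p21, had the highest mean of the 49 genes over the 6 libraries, although Srsf5 was higher in each Nat10 flox/flox library. It had 127, 149 and 183 FPKM in Nat10-CKO-labelled libraries, against 76.1, 78.3 and 91.7 FPKM in those labelled Nat10 flox/flox, and the groups did not overlap. Averages were 153 ± 28.4 FPKM in the Nat10-CKO-labelled libraries and 82.0 ± 8.43 FPKM in those labelled Nat10 flox/flox (SD, n = 3 each), a 1.87-fold rise with a log2 fold change of 0.88 (SE 0.17), for which limma gave an adjusted p of 0.0066. Rbm24, its close relative and a splicing regulator of developing muscle, had 60.8, 48.5 and 58.9 FPKM in Nat10-CKO-labelled libraries and 60.2, 63.0 and 80.6 FPKM in those labelled Nat10 flox/flox (log2 fold change -0.27, adjusted p = 0.214). Its groups overlap, and it was called lower with quantile normalization and with array weights. Rbm38 was thus 2.09, 3.07 and 3.11 times as abundant as Rbm24 in the Nat10-CKO-labelled libraries, against 1.26, 1.24 and 1.14 times in those labelled Nat10 flox/flox. Together the 3 genes summed to 221, 237 and 300.2 FPKM in Nat10-CKO-labelled libraries and 157, 163 and 197 FPKM in those labelled Nat10 flox/flox, without overlap.

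**Figure D2:**
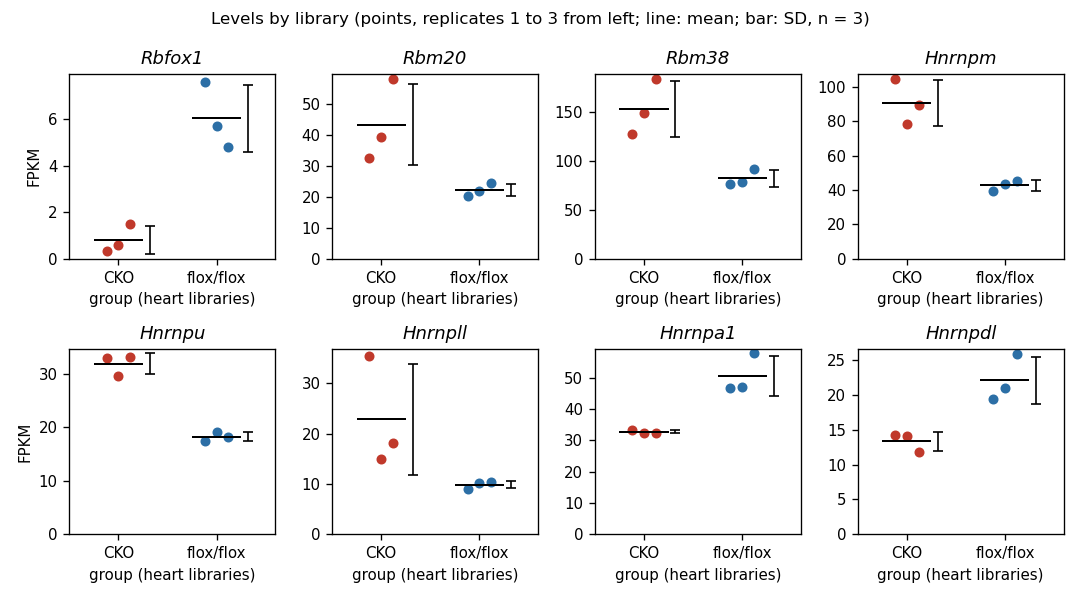
FPKM (vertical axes, starting at 0) of 8 splicing regulator genes in each library, the Nat10-CKO-labelled libraries on the left of each panel and the Nat10 flox/flox libraries on the right. Points are replicates 1 to 3, lines are means and bars are SD (n = 3). In no panel do the groups overlap, and in the Hnrnpll panel a single library labelled Nat10-CKO, replicate 1, stands at 35.5 FPKM above the other two.

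Of the 20 tested hnRNP genes, 8 rose (40%), 2 fell (10%) and 10 did not pass the test, against 24.4% and 16.0% of all tested genes. The median log2 fold change was 0.28. Rescaled, 3 rose (15%) and 3 fell (15%) with quantile normalization, against 21% and 18.8% of all tested genes. With mitochondrial genes left out and the rest rescaled, 2 rose (10%) and 3 fell (15%), against 19.6% and 20.7%. The same numbers with nuclear protein-coding genes at a common total stood against 19.2% and 21.1%. The share of hnRNP rises was thus above that of all genes with the deposited scaling and below it under each rescaling. Without any 1 of the Nat10 flox/flox libraries 2 rose (10%) and 2 fell (10%). Over all tested genes 19.8%, 17.7% and 19% rose and 12.7%, 10.1% and 10.1% fell without Nat10 flox/flox replicates 1, 2 and 3. Without Nat10-CKO replicate 1 there were 11 rises (55%) and 3 falls (15%), against 26% and 16% of all tested genes. Hnrnpm and Hnrnpu rose under each of these alternatives. The family summed to 813, 675 and 730 FPKM in Nat10-CKO-labelled libraries and 576, 581 and 656 FPKM in those labelled Nat10 flox/flox, which do not overlap. As a share of the FPKM of all nuclear protein-coding genes, the sums were 0.27%, 0.204% and 0.217% in Nat10-CKO-labelled libraries and 0.2%, 0.197% and 0.216% in those labelled Nat10 flox/flox, and these shares overlap.

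Hnrnpm, whose protein binds GU-rich RNA, rose with a log2 fold change close to that of Hnrnpll, described below. It stood at 104, 78.2 and 89.0 FPKM in Nat10-CKO-labelled libraries, against 39.4, 43.4 and 45.1 FPKM in those labelled Nat10 flox/flox, and the groups lay far apart. Means of 90.5 ± 13.1 FPKM in Nat10-CKO-labelled libraries and 42.6 ± 2.94 FPKM in those labelled Nat10 flox/flox (SD, n = 3 each) were 2.12-fold apart, with a log2 fold change of 1.06 (SE 0.14), for which limma gave an adjusted p of 0.00161. The gene (ID 76936) lies on chromosome 17 at 33865207 to 33904432, minus strand. It held 12.8%, 11.6% and 12.2% of the family's FPKM in Nat10-CKO-labelled libraries and 6.84%, 7.48% and 6.86% in those labelled Nat10 flox/flox. These shares do not depend on library scaling.

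Hnrnpu encodes a scaffold protein of the nucleus that binds RNA and chromatin. It had 32.8, 29.5 and 33.0 FPKM in Nat10-CKO-labelled libraries, against 17.4, 19.1 and 18.1 FPKM in those labelled Nat10 flox/flox. The replicates lay close together and the groups far apart. Hnrnpu averaged 31.8 ± 1.96 FPKM in Nat10-CKO-labelled libraries and 18.2 ± 0.853 FPKM in those labelled Nat10 flox/flox (SD, n = 3 each), 1.75-fold higher, with a log2 fold change of 0.77 (SE 0.099), for which limma gave an adjusted p of 0.00154. The gene (ID 51810, chromosome 1, 178148673 to 178170063, minus strand) overlaps Cox20 on the other strand. Cox20 had 6.44, 4.66 and 4.79 FPKM in Nat10-CKO-labelled libraries and 2.36, 2.72 and 2.9 FPKM in those labelled Nat10 flox/flox, and the strand setting of the counting is not known.

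Hnrnpll, whose protein is known for the skipping of CD45 exons in T cells, had 35.5, 14.9 and 18.2 FPKM in Nat10-CKO-labelled libraries and 9.08, 10.2 and 10.4 FPKM in those labelled Nat10 flox/flox (log2 fold change 1.04, SE 0.30, adjusted p = 0.0304). The ratio of its means was 2.32, above that of Hnrnpm, while the log2 fold changes of both genes lay well within their errors of each other. Replicate 1 of the Nat10-CKO-labelled libraries was far above the other two, and without it the log2 fold change was 0.69 (adjusted p = 0.00719). The call was lost under all 3 rescalings (adjusted p of 0.0581 to 0.0604), with no filter (0.0825) and without any 1 of the Nat10 flox/flox libraries (0.0742 to 0.0837). Its paralogue Hnrnpl had 71.3, 41.7 and 52.5 FPKM in Nat10-CKO-labelled libraries and 39.5, 42.1 and 57.6 FPKM in those labelled Nat10 flox/flox, which overlap (log2 fold change 0.23, adjusted p = 0.457).

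The other 5 hnRNP genes that rose did so by smaller amounts, and each likewise lost its call under all 3 rescalings and without any 1 of the Nat10 flox/flox libraries. Hnrnpk, a KH-domain protein that binds C-rich RNA, had 119, 89.4 and 95.8 FPKM in Nat10-CKO-labelled libraries, against 67.0, 67.3 and 70.5 FPKM in those labelled Nat10 flox/flox (log2 fold change 0.55, SE 0.14, adjusted p = 0.0179). Hnrnpab, an A/B-type hnRNP, stood at 102.5, 71.6 and 75.1 FPKM in Nat10-CKO-labelled libraries, against 54.1, 51.1 and 58.9 FPKM in those labelled Nat10 flox/flox (log2 fold change 0.58, SE 0.16, adjusted p = 0.0284). In both genes replicate 1 labelled Nat10-CKO was the highest, and the groups did not overlap. Hnrnph1 and Hnrnpf encode related proteins that bind runs of G. For Hnrnph1 the values were 33.6, 29.9 and 34.0 FPKM in Nat10-CKO-labelled libraries and 22.7, 25.2 and 25.6 FPKM in those labelled Nat10 flox/flox (log2 fold change 0.39, SE 0.11, adjusted p = 0.0252). For Hnrnpf they were 13.5, 11.9 and 12.2 FPKM in Nat10-CKO-labelled libraries and 8.92, 9.51 and 9.67 FPKM in those labelled Nat10 flox/flox (log2 fold change 0.38, SE 0.094, adjusted p = 0.0185). Hnrnpul2, a relative of Hnrnpu, had 29.4, 28.4 and 31.7 FPKM in Nat10-CKO-labelled libraries and 24.1, 23.7 and 24.3 FPKM in those labelled Nat10 flox/flox (log2 fold change 0.30, SE 0.094, adjusted p = 0.0421). All 3 of these genes had groups that lay apart by only a few FPKM. Rows that share sequence or position bear on 4 of the 5 genes. A row with no gene symbol that names the same protein as Hnrnpk had 29.2, 23.0 and 28.8 FPKM in Nat10-CKO-labelled libraries and 15.0, 20.2 and 23.2 FPKM in those labelled Nat10 flox/flox, the pseudogene Gm6430 shares the Hnrnpf name, and Phykpl and Ttc9c overlap Hnrnpab and Hnrnpul2 on the other strand. Reads split between such rows leave these values uncertain.

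Hnrnpa1 and Hnrnpdl fell. HNRNPA1 is a well studied repressor of exon inclusion. Hnrnpa1 had 33.3, 32.5 and 32.5 FPKM in Nat10-CKO-labelled libraries, against 46.8, 47.2 and 57.9 FPKM in those labelled Nat10 flox/flox. The Nat10-CKO-labelled libraries were within 1 FPKM of each other and all below the Nat10 flox/flox libraries. Hnrnpa1 (ID 15382, chromosome 15, 103148370 to 103155125, plus strand) averaged 32.8 ± 0.440 FPKM in Nat10-CKO-labelled libraries and 50.6 ± 6.32 FPKM in those labelled Nat10 flox/flox (SD, n = 3 each), 1.55-fold lower, with a log2 fold change of -0.61 (SE 0.12), for which limma gave an adjusted p of 0.00762. A transcribed pseudogene copy, Gm10052, had 6.08, 3.91 and 4.64 FPKM in Nat10-CKO-labelled libraries and 6.55, 6.66 and 6.88 FPKM in those labelled Nat10 flox/flox, so reads split between the copies leave the size of the fall uncertain. Hnrnpdl, a relative of the AU-rich RNA binder Hnrnpd, had 14.3, 14.0 and 11.8 FPKM in Nat10-CKO-labelled libraries, against 19.3, 21.0 and 25.9 FPKM in those labelled Nat10 flox/flox. It averaged 13.4 ± 1.36 FPKM in Nat10-CKO-labelled libraries and 22.1 ± 3.40 FPKM in those labelled Nat10 flox/flox (SD, n = 3 each), 1.65-fold lower, with a log2 fold change of -0.68 (SE 0.14), for which limma gave an adjusted p of 0.00953. No library of either group crossed into the other. Enoph1 overlaps Hnrnpdl on the other strand and had 3.66, 3.49 and 3.93 FPKM in Nat10-CKO-labelled libraries and 3.54, 3.01 and 2.82 FPKM in those labelled Nat10 flox/flox.

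Of the 10 hnRNP genes that did not pass, 4 had groups that did not overlap. Over all 20 tested hnRNP genes, passed or not, it was 14 (70%), against 55.9% of all tested genes. Hnrnpa0, an intronless A-type gene, had 52.4, 45.1 and 46.3 FPKM in Nat10-CKO-labelled libraries, against 65.8, 54.6 and 67.7 FPKM in those labelled Nat10 flox/flox (log2 fold change -0.38, adjusted p = 0.0545). It was called lower under all 3 rescalings, with array weights and without Nat10-CKO replicate 1. Hnrnpc, which binds runs of U in new transcripts, had 26.4, 34.4 and 37.8 FPKM in Nat10-CKO-labelled libraries, against 22.4, 25.0 and 24.7 FPKM in those labelled Nat10 flox/flox (log2 fold change 0.42, adjusted p = 0.0624). Hnrnpr stood at 3.05, 3.70 and 3.91 FPKM in Nat10-CKO-labelled libraries and 2.25, 2.60 and 2.83 FPKM in those labelled Nat10 flox/flox (log2 fold change 0.35, adjusted p = 0.0571). Hnrnph2, the X-linked relative of Hnrnph1, had 26.5, 26.3 and 29.96 FPKM in Nat10-CKO-labelled libraries and 24.2, 21.0 and 24.6 FPKM in those labelled Nat10 flox/flox (log2 fold change 0.24, adjusted p = 0.135). Hnrnpc and Hnrnpr were called higher with array weights and without Nat10-CKO replicate 1, and Hnrnpr also with quantile normalization and by voom. Hnrnpa0 was the only one of the 4 with the lower levels in Nat10-CKO-labelled libraries.

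In the remaining 6 hnRNP genes that did not pass, Hnrnpl among them, the groups overlap. Hnrnpa2b1, the main partner of HNRNPA1 in hnRNP particles, had 70.0, 79.5 and 79.9 FPKM in Nat10-CKO-labelled libraries and 71.2, 75.2 and 84.7 FPKM in those labelled Nat10 flox/flox (log2 fold change -0.01). Hnrnpa3, another A-type protein, had 7.45, 5.82 and 6.06 FPKM in Nat10-CKO-labelled libraries and 6.86, 8.21 and 8.64 FPKM in those labelled Nat10 flox/flox (log2 fold change -0.26). Hnrnpd, which binds AU-rich elements, had 8.71, 8.32 and 8.70 FPKM in Nat10-CKO-labelled libraries and 8.09, 7.99 and 9.01 FPKM in those labelled Nat10 flox/flox (log2 fold change 0.03). Hnrnpa2b1 and Hnrnpd covered almost the same range in both groups. Hnrnph3 gave 6.04, 9.68 and 11.0 FPKM in Nat10-CKO-labelled libraries and 7.20, 6.50 and 7.62 FPKM in those labelled Nat10 flox/flox (log2 fold change 0.25), with replicate 1 labelled Nat10-CKO the lowest of all 6. Hnrnpul1 gave 23.2, 19.8 and 20.1 FPKM in Nat10-CKO-labelled libraries and 19.5, 19.7 and 22.9 FPKM in those labelled Nat10 flox/flox (log2 fold change 0.02). Over the 10 hnRNP genes that did not pass, the 95% limma intervals of the log2 fold change ran from -0.68 to 0.78, and those of Hnrnpa0, Hnrnpc and Hnrnpr, before adjustment, did not include 0. With array weights Hnrnpa3 was called lower and Hnrnph3 higher, and Hnrnph3 also without Nat10-CKO replicate 1.

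None of the 10 tested SR genes passed the test in limma, against 24.4% rises and 16.0% falls over all tested genes. At an unadjusted p under 0.05, 1 was higher and 1 lower, against 3489 and 2502 of all 11996 tested genes. Voom on recovered reads also called 0, against 20.2% rises and 14.8% falls over all tested genes. The SR log2 fold changes ran from -0.35 to 0.35 with a median of 0.08, and the 95% intervals from -0.66 to 0.635. Under the rescalings the median turned to between -0.07 and -0.02, and 1 SR gene, Srsf5, was called lower in each, as it was with array weights and without Nat10-CKO replicate 3. Srsf2 was called higher with a minimum mean of 5 FPKM and with array weights. The family summed to 277, 256 and 292 FPKM in Nat10-CKO-labelled libraries and 260, 269 and 298 FPKM in those labelled Nat10 flox/flox, which overlap. GENCODE annotates a transcript marked for nonsense-mediated decay for all 10 SR genes, for 33 of the 41 tested regulators (80.5%) and for 77.8% of the 10809 tested protein-coding genes. Such transcripts add to the FPKM of a gene, which does not tell them from coding ones.

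Srsf5 and Srsf2 sat at the ends of the SR range, with groups that did not overlap. These were 2 of the 10 tested SR genes (20%), against 55.9% of all tested genes without overlap. Srsf5, the most abundant SR gene, had 74.1, 70.1 and 85.1 FPKM in Nat10-CKO-labelled libraries, against 91.0, 94.5 and 108 FPKM in those labelled Nat10 flox/flox (log2 fold change -0.35, SE 0.13, adjusted p = 0.0666). Srsf2, whose mouse gene is needed in the heart, had 52.9, 47.9 and 54.3 FPKM in Nat10-CKO-labelled libraries, against 36.5, 40.0 and 44.6 FPKM in those labelled Nat10 flox/flox (log2 fold change 0.35, SE 0.12, adjusted p = 0.0515). Within each library the ratio of Srsf2 to Srsf5 was 0.715, 0.684 and 0.638 in Nat10-CKO-labelled libraries and 0.401, 0.423 and 0.413 in Nat10 flox/flox libraries. Srsf5 made up 26.7% to 29.1% of the family's FPKM in Nat10-CKO-labelled libraries and 35% to 36.2% in those labelled Nat10 flox/flox.

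The other 8 SR genes had groups that overlap. Srsf1, the classic SR protein needed for heart maturation in mice, had 26.4, 21.1 and 23.6 FPKM in Nat10-CKO-labelled libraries and 18.2, 19.1 and 21.7 FPKM in those labelled Nat10 flox/flox (log2 fold change 0.25). Srsf3 and Srsf7 also link splicing to mRNA export. Srsf3 had 30.7, 30.2 and 33.9 FPKM in Nat10-CKO-labelled libraries and 27.4, 26.6 and 31.6 FPKM in those labelled Nat10 flox/flox (log2 fold change 0.14). Srsf7 had 16.4, 19.6 and 21.6 FPKM in Nat10-CKO-labelled libraries and 15.8, 17.3 and 17.7 FPKM in those labelled Nat10 flox/flox (log2 fold change 0.16). Srsf6, Srsf4 and Srsf5 encode similar proteins with paired RNA recognition motifs. For Srsf6 the levels were 36.0, 30.8 and 33.0 FPKM in Nat10-CKO-labelled libraries and 30.8, 34.5 and 33.7 FPKM in those labelled Nat10 flox/flox (log2 fold change 0.01). For Srsf4 they were 2.77, 2.88 and 3.18 FPKM in Nat10-CKO-labelled libraries and 2.29, 2.93 and 2.998 FPKM in those labelled Nat10 flox/flox (log2 fold change 0.08), the lowest level among the tested SR genes. Srsf9, with a short arginine and serine tail, had 15.6, 14.0 and 16.0 FPKM in Nat10-CKO-labelled libraries and 17.9, 12.8 and 15.9 FPKM in those labelled Nat10 flox/flox (log2 fold change -0.02). Srsf10, a splicing repressor when dephosphorylated, had 7.87, 7.82 and 9.18 FPKM in Nat10-CKO-labelled libraries and 7.71, 7.69 and 8.06 FPKM in those labelled Nat10 flox/flox (log2 fold change 0.07). Srsf11 had 14.5, 11.8 and 12.5 FPKM in Nat10-CKO-labelled libraries and 12.0, 13.5 and 13.8 FPKM in those labelled Nat10 flox/flox (log2 fold change -0.02).

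The 6 tested CELF, MBNL and PTBP genes did not pass the test either, and none had an unadjusted limma p under 0.05 or a call by voom. Over all 11996 tested genes, 40.5% passed in limma, and 3489 were higher and 2502 lower at an unadjusted p under 0.05. The 95% intervals of the 6 genes ran from -0.76 to 0.57 on the log2 scale. Celf1, whose protein binds GU-rich RNA and is known to decline in heart after birth, had 15.7, 13.3 and 13.3 FPKM in Nat10-CKO-labelled libraries and 12.3, 13.3 and 13.8 FPKM in those labelled Nat10 flox/flox (log2 fold change 0.09, adjusted p = 0.509). Celf2, its paralogue, had 1.11, 1.26 and 1.41 FPKM in Nat10-CKO-labelled libraries and 0.964, 1.13 and 1.15 FPKM in those labelled Nat10 flox/flox (log2 fold change 0.12, adjusted p = 0.481). Both overlap between groups. Mbnl1, the muscleblind protein sequestered in myotonic dystrophy, had 17.9, 13.5 and 17.7 FPKM in Nat10-CKO-labelled libraries, against 19.4, 22.5 and 18.9 FPKM in those labelled Nat10 flox/flox (log2 fold change -0.30, adjusted p = 0.136). Its groups did not overlap, by under 1 FPKM. Mbnl2 had 52.9, 44.8 and 51.7 FPKM in Nat10-CKO-labelled libraries and 41.8, 36.8 and 47.6 FPKM in those labelled Nat10 flox/flox, which overlap (log2 fold change 0.24, adjusted p = 0.192). Ptbp1, the pyrimidine tract binder that represses muscle and neuronal exons, had 19.2, 14.8 and 13.6 FPKM in Nat10-CKO-labelled libraries and 17.1, 21.1 and 23.3 FPKM in those labelled Nat10 flox/flox (log2 fold change -0.36, adjusted p = 0.134). Its paralogue Ptbp2 had 7.60, 5.55 and 4.90 FPKM in Nat10-CKO-labelled libraries and 4.60, 5.23 and 5.25 FPKM in those labelled Nat10 flox/flox (log2 fold change 0.20, adjusted p = 0.329). Replicate 1 was the highest of the Nat10-CKO-labelled libraries for both PTBP genes. With quantile normalization and with array weights Mbnl1 and Ptbp1 were called lower, and without Nat10-CKO replicate 1 so was Ptbp1.

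Related genes were also compared as a ratio of FPKM within each library, which library scaling does not touch. With 3 libraries per group the smallest p an exact two-sided permutation test allows is 0.1, so none of the 9 ratios could pass 0.05, before or after adjustment. The pairs were chosen with the levels of their members known, and a ratio that holds a called gene is no independent support for that call. Rbfox1 to Rbfox2 was 0.123, 0.151 and 0.421 in Nat10-CKO-labelled libraries, against 2.69, 2.33 and 1.64 in Nat10 flox/flox libraries, so the more abundant of the pair was Rbfox2 in every Nat10-CKO-labelled library and Rbfox1 in every Nat10 flox/flox library. Rbm20 to Rbm24 was 0.535, 0.814 and 0.983 in Nat10-CKO-labelled libraries and 0.338, 0.347 and 0.303 in Nat10 flox/flox libraries. Hnrnpll to Hnrnpl was 0.498, 0.357 and 0.346 in Nat10-CKO-labelled libraries and 0.230, 0.242 and 0.180 in Nat10 flox/flox libraries. These ratios did not overlap between groups. Hnrnpa1 to Hnrnpa2b1 was 0.475, 0.409 and 0.407 in Nat10-CKO-labelled libraries and 0.658, 0.627 and 0.684 in Nat10 flox/flox libraries. Its groups did not overlap either. Although neither member of the pair passed the test alone, Ptbp2 to Ptbp1 was 0.396, 0.376 and 0.360 in Nat10-CKO-labelled libraries, against 0.268, 0.248 and 0.225 in Nat10 flox/flox libraries. Mbnl2 to Mbnl1 was 2.95, 3.31 and 2.92 in Nat10-CKO-labelled libraries, against 2.15, 1.63 and 2.52 in Nat10 flox/flox libraries. Both ratios lay apart between the groups. These ratios, and those of Rbm38 to Rbm24 and Srsf2 to Srsf5, each had an exact permutation p of 0.1. Celf2 to Celf1 overlapped, at 0.0710, 0.0950 and 0.106 in Nat10-CKO-labelled libraries and 0.0780, 0.0852 and 0.0832 in Nat10 flox/flox libraries (exact permutation p = 0.5).

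**Figure D3:**
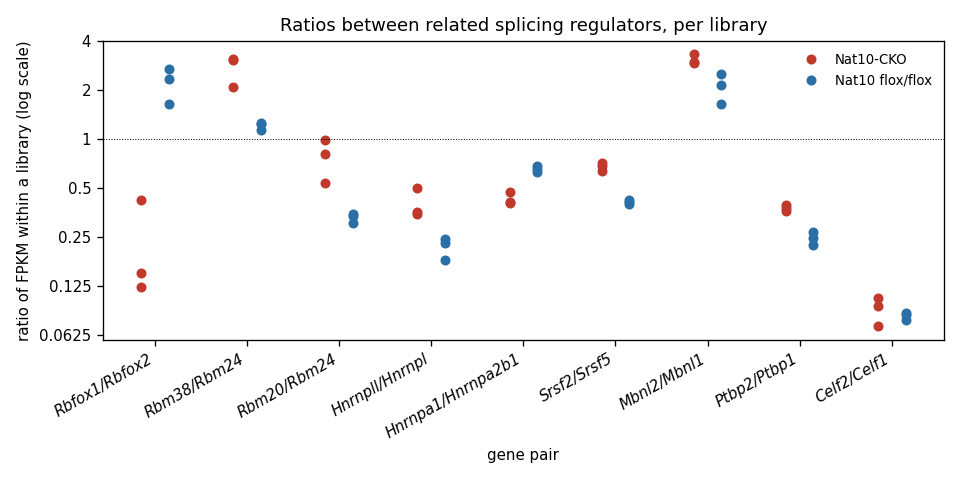
Ratio of FPKM between related splicing regulators (vertical axis, log scale) in each library, with Nat10-CKO-labelled libraries to the left of Nat10 flox/flox libraries in each pair of columns. Points are single libraries. The Rbfox1 to Rbfox2 ratio lies below 1 in the Nat10-CKO-labelled libraries (0.123 to 0.421) and above 1 in the Nat10 flox/flox libraries (1.64 to 2.69), and of the pairs drawn Celf2 to Celf1 alone overlaps.

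Within a group, many of the 41 tested genes were highest in the same library. Among the Nat10-CKO-labelled libraries, 21 (51.2%) were highest in replicate 1, 1 (2.44%) in replicate 2 and 19 (46.3%) in replicate 3, against 37.5%, 23.6% and 38.9% of all tested genes. Among the Nat10 flox/flox libraries, 35 of the 41 (85.4%) were highest in replicate 3, against 41.3% of all tested genes. The 12 hnRNP genes that were highest in replicate 1 labelled Nat10-CKO include Hnrnpll, Hnrnpl, Hnrnpab, Hnrnpk and Hnrnpm. That library also had the lowest sum of cardiomyocyte markers, and the part of cell types in these levels was not tested. The median coefficient of variation was 11% in Nat10-CKO-labelled libraries and 9.19% in those labelled Nat10 flox/flox. Over all tested genes it was 15.4% in Nat10-CKO-labelled libraries and 10.7% in those labelled Nat10 flox/flox.

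The 8 genes under the filter were near 0 in most libraries. Hnrnpa1l2-ps2, deposited as protein-coding but named as a pseudogene, was at 0 in all 6. Celf6 had 331 reads (1.28 FPKM) and Srsf12 68 reads (0.530 FPKM) in Nat10 flox/flox replicate 1, and both were at 0 in the other 5 libraries. Celf4 reached 1.21 FPKM in that library and at most 0.0985 FPKM in the others, and Rbfox3, known as the neuronal marker NeuN, 0.778 FPKM there and at most 0.00674 FPKM elsewhere. Celf3 had 0.237 FPKM and Celf5 0.203 FPKM in the same library, and at most 0.0477 and 0.0522 FPKM elsewhere. The CELF genes named here and Rbfox3 are known as genes of the nervous system. All 6 genes were highest in the library that also held the neuron markers at 729 FPKM and 10 of 10 Schwann cell markers at their highest, with a sum of 186 FPKM there and 30.6 to 46.4 FPKM in the other 5 libraries. The part of nerve tissue in these levels was not tested. Mbnl3, a muscleblind gene of muscle progenitors on the X chromosome, had 0.117, 0.0566 and 0.0540 FPKM in Nat10-CKO-labelled libraries, against 0.151, 0.155 and 0.142 FPKM in those labelled Nat10 flox/flox, from 28 to 94 reads each.

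**Figure D4:**
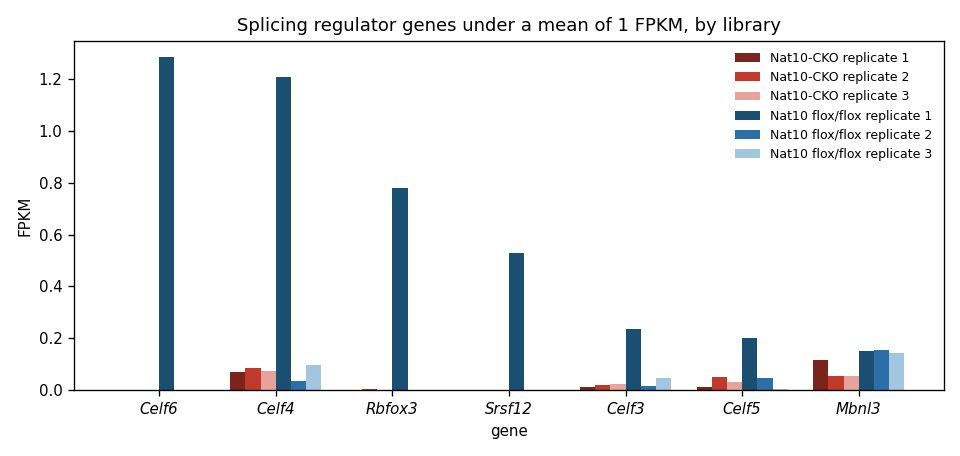
FPKM (vertical axis, starting at 0) in each of the 6 libraries of the 7 splicing regulator genes that were under a mean of 1 FPKM and above 0 in any library, with the Nat10-CKO-labelled libraries to the left. Of the 7, all but Mbnl3 are highest in Nat10 flox/flox replicate 1, where Celf6 reaches 1.28 FPKM.

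Other genes of the splicing machinery were counted from lists of known splicing genes. Of 22 kinases of SR proteins and SR-like factors, 12 rose and 0 fell in limma (14 and 0 at an unadjusted p under 0.05, 11 and 0 by voom), with a median log2 fold change of 0.44. These are 54.5% and 0%, against 24.4% and 16.0% of all tested genes. The split was 11 and 1 (50% and 4.55%) with quantile normalization and 10 and 1 (45.5% and 4.55%) with either of the other rescalings. Of all tested genes, 21% rose and 18.8% fell with quantile normalization. With mitochondrial genes left out and the rest rescaled these shares were 19.6% and 20.7%, and with a common nuclear protein-coding total 19.2% and 21.1%. Voom gave 20.2% rises and 14.8% falls over all tested genes. Among them, Srpk3, the SR protein kinase of striated muscle, had 48.9, 45.8 and 61.0 FPKM in Nat10-CKO-labelled libraries and 15.7, 18.9 and 18.3 FPKM in those labelled Nat10 flox/flox (log2 fold change 1.5, adjusted p = 0.000602). Dyrk1a, a kinase of SR proteins in nuclear speckles, had 23.3, 19.2 and 20.1 FPKM in Nat10-CKO-labelled libraries and 5.94, 6.60 and 7.05 FPKM in those labelled Nat10 flox/flox (log2 fold change 1.54, adjusted p = 0.000335). Scaf8 and Scaf1, SR-like proteins that bind RNA polymerase II, rose with log2 fold changes of 1.14 (adjusted p = 0.00125) and 0.78 (adjusted p = 0.00132). No SR gene passed the test beside these, and the difference between the lists was not tested. Of 55 tested core spliceosome genes, 28 rose (50.9%) and 2 fell (3.64%), against 24.4% and 16.0% of all tested genes, with a median log2 fold change of 0.48. The split was 22 and 4 with quantile normalization, 25 and 3 without mitochondrial genes and 24 and 4 with a common total, and 1 fell without any 1 of the Nat10 flox/flox libraries or without Nat10-CKO replicate 3. The 4 with the smallest p were U2af1, which reads the AG at the end of introns (1.35 on the log2 scale, adjusted p = 0.000359), Xab2 (1.28, adjusted p = 0.000471), the helicase gene Dhx38 (1.32, adjusted p = 0.000488) and Prpf38a (1.34, adjusted p = 0.000533). Of 43 tested other splicing regulators, 11 rose (25.6%) and 7 fell (16.3%), shares close to the 24.4% and 16.0% of all tested genes, with a median log2 fold change of -0.01. The leading genes were Rbm25 (0.73, adjusted p = 0.0021), Tardbp (0.88, adjusted p = 0.00233), Syncrip (0.81, adjusted p = 0.00251) and Ewsr1 (0.72, adjusted p = 0.00337). The split was 9 and 9 (20.9% each) with quantile normalization and 10 and 9 (23.3% and 20.9%) with either of the other rescalings. When Nat10 flox/flox replicate 2 or 3 or Nat10-CKO replicate 2 was left out, 1 of these 43 fell (2.33%). Of all tested genes, 10.1%, 10.1% and 11.4% fell without these libraries.

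The transcripts that RBM20, RBM24 and the RBFOX proteins are known to splice in heart were taken as a list of 22 genes. In this list 6 rose (27.3%) and 3 fell (13.6%), shares close to the 24.4% and 16.0% of all tested genes, with a median log2 fold change of 0.18. Ttn, the giant sarcomere spring, had 17.9, 25.7 and 25.3 FPKM in Nat10-CKO-labelled libraries and 25.0, 30.4 and 31.9 FPKM in those labelled Nat10 flox/flox (log2 fold change -0.34, adjusted p = 0.161). Camk2d, the main calcium and calmodulin dependent kinase of heart, had 15.7, 18.4 and 17.5 FPKM in Nat10-CKO-labelled libraries and 14.6, 14.6 and 14.8 FPKM in those labelled Nat10 flox/flox (log2 fold change 0.21, adjusted p = 0.121). Neither passed the test. Among those that did, Nexn, an actin filament protein of the Z disc, had 240.9, 313 and 354 FPKM in Nat10-CKO-labelled libraries and 104, 127 and 118 FPKM in those labelled Nat10 flox/flox (log2 fold change 1.36, adjusted p = 0.00154). Pdlim5 (1.15, adjusted p = 0.00181), Rtn4 (1.88, adjusted p = 0.0123), Ldb3, Pdlim3 and Lmo7 rose too, and Camk2g (-0.82, adjusted p = 0.00848), Cacna1c and Ank2 fell. The split was 5 and 5 (22.7% each) with quantile normalization, against 21% and 18.8% of all tested genes. It was 6 and 5 (27.3% and 22.7%) with either of the other rescalings. The shares over all tested genes were 19.6% and 20.7% with mitochondrial genes left out and the rest rescaled. They were 19.2% and 21.1% with a common nuclear protein-coding total. Only 1 gene of the list fell without any 1 of the Nat10 flox/flox libraries or without Nat10-CKO replicate 2, and 4 rose without Nat10 flox/flox replicate 1 or 2. A level summed over a gene does not tell its splice forms apart, so exon use was not measured in any of these transcripts.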

How the data were processed

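RNA from 6 mouse hearts was sequenced after selection on poly-T beads, as directional libraries in read pairs of 150 bp, per the labels' protocols. Per the series' design text the authors aligned reads to GRCm39 with HISAT2 2.2.1 and counted them with featureCounts 2.0.6. CASAVA and DESeq2 1.42.0 are named as well, per the submitters' processing notes. The strand setting and the definition of gene length are not given in the sources used here. The deposited values are FPKM, 1 column per library. Multiplying by gene length gave whole multiples of 1 read in 100% of values (tolerance 0.01 read), so the reads were recovered. Their denominators equalled median-of-ratios size factors, so the authors' FPKM already carry that scaling.

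Both groups entered a single limma 3.58.1 fit (R 4.3.3, eBayes with the trend option), two-sided, on log2(FPKM + 1), over genes with a mean of at least 1 FPKM in the 6 libraries. P-values were adjusted by Benjamini-Hochberg over all 11996 tested genes, with a threshold of 0.05. Adding 1 understates the change of low genes. Folds are ratios of mean FPKM. Ratios between genes were tested by exact permutation. The code was tested on simulated data. No batch is labelled. Figures used matplotlib 3.10.9 in Python 3.11.15.

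The genes, the lists and the alternatives were chosen with earlier results of these data known. All 41 tested genes are named, and of each list of other splicing genes and targets the 4 with the smallest adjusted p. Other genes named were chosen after their values were seen. The alternatives tried were pseudocounts of 0.1 and 0.5, no filter or a minimum mean of 5 FPKM, 3 other scalings, voom, array weights, a replicate block and the removal of each library in turn. Replicate numbers did not pair the libraries: deviations of same-numbered libraries from their group means correlated at 0.065, 0.037 and 0.105. Protein sequences were not used here.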

Additional observations from a re-analysis of the deposited data

How the results depend on the processing

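Of the 13 genes called, 6 (Rbfox1, Rbm38, Hnrnpm, Hnrnpu, Hnrnpa1 and Hnrnpdl) kept their call in all 17 alternatives in which they were tested, and 0 of the 13 turned sign in any. Of the 28 genes not called, 11 passed in at least 1 alternative and 15 turned sign in at least 1. These counts were not made over all tested genes, so they do not set the splicing regulators apart from other genes. The count of 10 rises was 5 with quantile normalization, 4 with mitochondrial genes left out, 4 with nuclear protein-coding genes rescaled, 6 with voom on the recovered reads and 15 with array weights, and ran from 3 to 13 with single libraries left out. The count of 3 falls was 8 with quantile normalization, 5 with either of the other rescalings, 9 with array weights and 5 without replicate 1 of both groups, and ran from 3 to 5 with single libraries left out. Of all tested genes, 18.8% fell with quantile normalization and 20.7% and 21.1% with the other rescalings. With array weights 25.1% of them fell, and 15.9% without replicate 1 of both groups. The share was 10.1% to 16% with single libraries left out and 16% in the reported fit. Why these counts moved was not tested. With the replicate block there were 7 rises and 3 falls (Hnrnpf, Hnrnph1 and Hnrnpul2 lost their call). That fit gave 22.2% rises and 14.4% falls over all tested genes. Pseudocounts of 0.1 and 0.5 left both counts at 10 and 3.

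Falls over all genes, 1924 in the reported fit, numbered 1159 with a minimum mean of 5 FPKM, 3007 with array weights, and 1207, 1212 and 1365 without Nat10 flox/flox replicate 2, Nat10 flox/flox replicate 3 and Nat10-CKO replicate 2. Rises over all genes, 2932 in the reported fit, numbered 2380, 2126 and 2275 without Nat10 flox/flox replicates 1, 2 and 3. With 3 libraries per group, the limma p-values weigh the group difference against the spread between these hearts, moderated by a trend over all tested genes. Depth limits the low genes: Mbnl3 had 28 to 94 reads a library and Srsf12 at most 68.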
